A study of Mus musculus with 4 samples.

Results

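The Rfx family comprises transcription factors, and the 6 members described here (Rfx1, Rfx2, Rfx3, Rfx5, Rfx6 and Rfx7) are Rfx genes with a row in the authors' count table of 29161 genes. The choice used gene names and no threshold on values. Rfx4 and Rfx8, which were not among the 6, also have rows and the lowest counts of the 8 Rfx genes. Rfx4 had 51 counts and Rfx8 had 26 counts over all cells, and each reached 5 counts in only 1 cell, so they appear below only where they passed the low-count filter. The cells were followed in 3 classes: Neurog3-positive cells (at least 5 Neurog3 counts), Tph1-high cells (Tph1 at 200 CPM or more, where CPM is counts per 1000000 counts of the cell) and peptide-hormone-high cells (any of Cck, Gip, Gcg and Ghrl at 1000 CPM or more). The levels of those 6 genes therefore define the classes and are not results.

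RFX proteins bind DNA through a winged-helix domain and recognise an inverted repeat called the X-box. Rfx6 acts downstream of Neurog3 in the endocrine cells of the pancreas and gut, and loss of its human counterpart causes neonatal diabetes with intestinal defects. Rfx2 and Rfx3 switch on genes for cilia, and Rfx3 also acts in pancreatic islet cells. Rfx5 forms a complex with Rfxank and Rfxap at the promoters of MHC class II genes, Rfx1 is a broadly expressed activator and repressor, and Rfx7 is a broadly expressed relative of Rfx5.

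The study asked how intestinal endocrine subtypes arise, and worked with enteroids, cultured buds of intestinal epithelium. The enteroids came from adult female CD1 mice heterozygous for a Neurog3eYFP reporter allele (Neurog3eYFP/+), and all cells shared this genotype and the same medium with R-spondin-1, EGF and noggin. Living eYFP-positive cells were sorted at 1 cell per well, 92 cells to a plate, and made into libraries with a plate-based single-cell kit. There were 4 plates: duodenum replicate 1 from a mouse aged 39 weeks, duodenum replicates 2 and 3 at 12 weeks, and jejunum replicate 1 at 12 weeks. Because Neurog3 is switched off while eYFP protein can persist, the sort holds progenitors and their descendants, and every cell carried the reporter allele. No wild-type or reporter-negative cells were analysed here.

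The table held 290 of the 368 sorted cells (72, 83, 72 and 63 cells in the order of plates above), with median counts per cell from 321533.5 in duodenum replicate 1 to 678124 in jejunum replicate 1. Well names recur by design: 88 of 92 well names were used on more than 1 plate, and 0 cells had values identical to those of another cell. By the class rules 50 cells were Neurog3-positive, 97 Tph1-high and 50 peptide-hormone-high, and 22 cells met 2 rules, 17 of them Neurog3 and Tph1. Tests used the 31, 77 and 45 cells that met 1 rule only and the 115 remaining cells that met none. The enterochromaffin marker list holds Tph1, the peptide hormone list holds Cck, Gip, Gcg and Ghrl, and the progenitor list holds Neurog3. Part of the separation in these marker sums was therefore fixed by the class rules. The 8 enterochromaffin markers summed to 7465 to 18064 CPM per plate in Tph1-high cells and to at most 2865 CPM in the other classes. The 9 peptide hormone markers summed to 14532 to 132631 CPM in peptide-hormone-high cells. Their sums were 190 to 5938 CPM in remaining cells, 274 to 1143 CPM in Tph1-high cells and 1.66 to 792 CPM in Neurog3-positive cells. The highest remaining cell had 163427 CPM, so the remaining cells were not free of peptide hormone transcripts. The 6 progenitor markers reached 893 to 3118 CPM in Neurog3-positive cells, 304 to 740 CPM in Tph1-high cells and 427 to 1351 CPM in peptide-hormone-high cells, a range that overlaps the first. Goblet markers (7 genes) summed to 16834 to 23059 CPM in remaining cells and 6904 to 26350 CPM in Neurog3-positive cells. They summed to 1307 to 8541 CPM in peptide-hormone-high cells and 541 to 1661 CPM in Tph1-high cells. Paneth markers (6 genes) summed to 3750 to 12789 CPM in remaining cells and 229 to 33061 CPM in Neurog3-positive cells. In peptide-hormone-high and Tph1-high cells the Paneth sums were 415 to 3967 CPM and 226 to 379 CPM. Immune markers summed to at most 4.72 CPM in any class and plate.

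The promoters of the members themselves were searched for RFX-type letters in windows of 300 bases around each RefSeq start (250 bases before it and 50 after, build GRCm38). All 6 members had such a window. The short motifs GTTGCC and GTTACC, read on both strands, occurred in 5 of the 6 member promoters and in 18.6% of 32851 promoters of the same length. A longer X-box-like motif, GTNNCC followed after 0 to 3 bases by NGNAAC, occurred in the Rfx2 promoter only among the members and in 5.25% of all promoters. The windows of 30 bases are shown because they hold these letters, which are in capitals, and they read 5′ to 3′ on the gene's strand. In Rfx2 the capitals span the whole longer motif, which overlaps a short one. A second short motif, GTTACC on the opposite strand, begins at -123 and stands in lower case in the Rfx2 window.

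Rfx6, chr10:51685523-51685552, plus strand: ttggtgacttctGGCAACttatttgataat
Rfx3, chr19:28011118-28011147, minus strand: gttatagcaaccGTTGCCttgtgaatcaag
Rfx2, chr17:56831103-56831132, minus strand: tggtaaccGTTGCCGGGCGCAACgccccgc
Rfx1, chr8:84066825-84066854, plus strand: tgggtagcaacaGTTGCCccggtgagggaa
Rfx5, chr3:94953996-94954025, plus strand: caatcatattctGTTACCaggcagactttc

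Counting from 1 at the RefSeq start, the motif began at base 2 in Rfx1, 18 in Rfx6 and 32 in Rfx3, so these lie in the first transcribed bases. It began at -116 in Rfx2 and -100 in Rfx5, ahead of the start. The Rfx6 start used lies inside the GENCODE gene (chr10:51677756-51730432), which has an earlier start as well. Rfx7 had neither motif in its window. Among the lists of related genes, the longer motif was in 6 of 17 promoters of cilium genes (35.3%), 5 of 18 of MHC class II regulators and targets (27.8%), 1 of 22 of endocrine transcription factors (4.55%) and 0 of 13 of stimulus-secretion genes. It was also in 1 of 9 promoters of hormone and serotonin genes, that of Gcg, which encodes proglucagon. Promoters were counted by window, and the 5 of 18 include Nfya through overlapping windows that begin at 48409771 and 48409705. These matches are letters in a window, and binding was not measured.

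Rfx6 was the family's most abundant transcript. Over whole plates it had 94.9, 81.3, 110.0 and 92.9 CPM in duodenum replicates 1, 2 and 3 and jejunum replicate 1, a mean of 94.8 ± 11.8 CPM (SD, n = 4 plates). Rfx3 followed with 32.1 ± 13.0 CPM, then Rfx7 with 20.8 ± 4.52, Rfx1 with 18.4 ± 4.15, Rfx2 with 11.0 ± 5.01 and Rfx5 with 2.03 ± 3.34 CPM. Divided by exonic length, the order was Rfx6 (23.6 ± 2.94 CPM per kb), Rfx3 (2.91 ± 1.18), Rfx1 (2.86 ± 0.646), Rfx2 (1.50 ± 0.685), Rfx7 (1.36 ± 0.295) and Rfx5 (0.370 ± 0.607). On this scale Rfx3 and Rfx1 did not differ beyond their spread, nor did Rfx2 and Rfx7. Whether the kit reads whole transcripts or their ends is not given in the sources used here, which is why both scales are printed.

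Rfx counts lay mainly in the cells that had 5 or more of them. For Rfx6, 156 cells (53.8%) had 5 or more counts, with a median of 45 counts in those cells, 34 cells had 1 to 4 counts and the rest had none. Cells with 5 or more counts held 99.6% of all Rfx6 counts. In them the Rfx6 level ran from 2.16 CPM through a median of 101 to 1604 CPM. Rfx3 reached 5 counts in 65 cells (22.4%), Rfx7 in 38 (13.1%), Rfx1 in 29 (10.0%), Rfx2 in 12 (4.14%) and Rfx5 in 7 (2.41%). Median counts in those cells were 56 for Rfx3, 54 for Rfx7, 100 for Rfx1, 102 for Rfx2 and 10 for Rfx5. A single cell held 79.2% of all Rfx5 counts and another 23.8% of all Rfx2 counts, so their levels rest on very few cells. With at least 1 count as the limit, the shares were 65.7% ± 11.2 for Rfx6, 41.0% ± 12.0 for Rfx3, 27.0% ± 15.1 for Rfx1, 26.5% ± 7.77 for Rfx7, 10.5% ± 10.2 for Rfx2 and 5.08% ± 2.70 for Rfx5 (SD, n = 4 plates).

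The 156 cells with Rfx6 extended well beyond those with Neurog3 transcript. Of them, 98 (62.8%) had no Neurog3 count at all, and 31 (19.9%) were Neurog3-positive. Read the other way, 31 of 50 Neurog3-positive cells (62.0%) had 5 or more Rfx6 counts. The share with Rfx6 was 50.3% in the 195 cells with no Neurog3 count, 60.0% in the 45 cells with 1 to 4, 57.1% in the 21 cells with 5 to 49 and 65.5% in the 29 cells with 50 or more. The exact 95% binomial intervals of these shares, which cover counting error only, overlapped (43.0% to 57.5% with no count against 45.7% to 82.1% with 50 or more).

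Tph1-high cells are the serotonin-producing enterochromaffin class, and their share with Rfx6 was close to that of Neurog3-positive cells. The share of Tph1-high cells with 5 or more Rfx6 counts was 66.7%, 64.0%, 60.0% and 67.7% in the 4 plates, or 63 of 97 cells (64.9%, 54.6% to 74.4%). In peptide-hormone-high cells it was 26 of 50 (52.0%, 37.4% to 66.3%), and in remaining cells 49 of 115 (42.6%, 33.4% to 52.2%). After every cell was thinned to 100000 counts, which left out 0 cells, the shares with at least 1 Rfx6 count were 67.0%, 54.0% and 40.9% in the same order. The classes differed in depth before thinning: median counts were 482073 in Tph1-high, 506893.5 in peptide-hormone-high and 371494 in remaining cells.

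**Figure D1:**
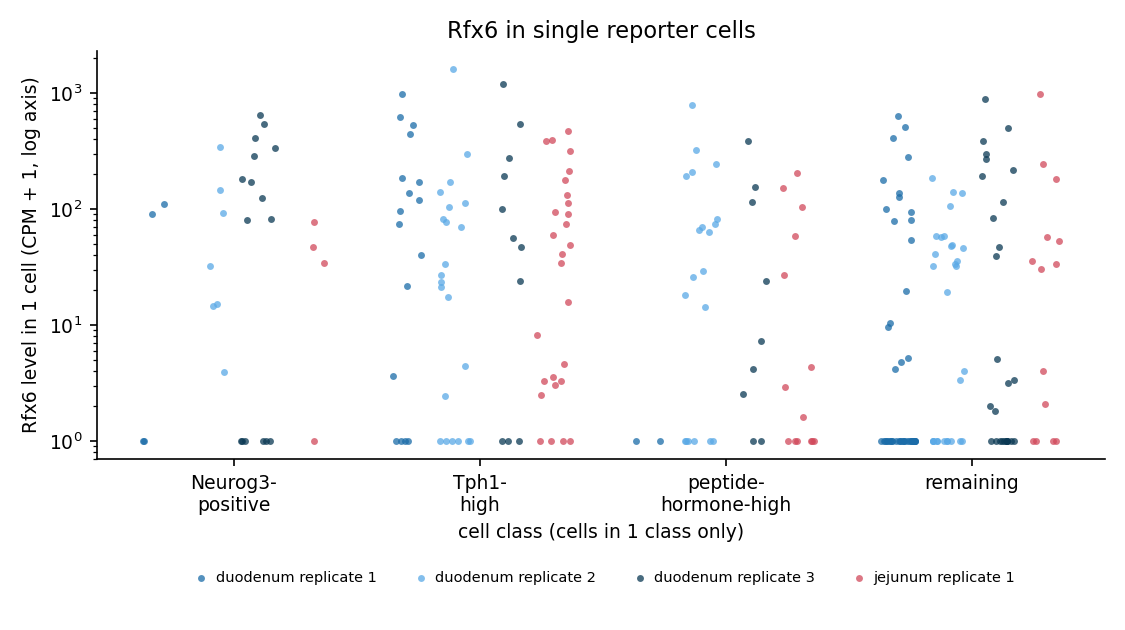
Rfx6 level in each cell (CPM plus 1, log axis) by class, for cells in 1 class only, with a point per cell coloured by plate. Points on the bottom line had no Rfx6 count. In every class some cells lay at 0 and others near or above 100 CPM.

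The remaining cells were not uniform. When they were split at 10000 CPM of summed goblet and Paneth markers (a split chosen with the values in view), 19 of 61 marker-high cells (31.1%, 19.9% to 44.3%) and 30 of 54 marker-low cells (55.6%, 41.4% to 69.1%) had 5 or more Rfx6 counts. Thinned to 100000 counts, the shares with at least 1 count were 29.5% and 53.7%, and median depth was 388295 and 333354 counts. Goblet and Paneth cells make mucus and antimicrobial proteins and are secretory cell types other than endocrine cells. The marker-high cells still had a median of 312 CPM of Chgb, the endocrine granule protein chromogranin B, beside 366 CPM in the marker-low cells, so 31.1% is not a share in cells free of endocrine transcripts. The marker-high share was 3 of 27 cells in duodenum replicate 1, 7 of 16 in replicate 2, 3 of 10 in replicate 3 and 6 of 8 in the jejunum plate. In the 3 duodenum plates the marker-high share was below that of Tph1-high cells, and in the jejunum plate it was above.

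**Figure D2:**
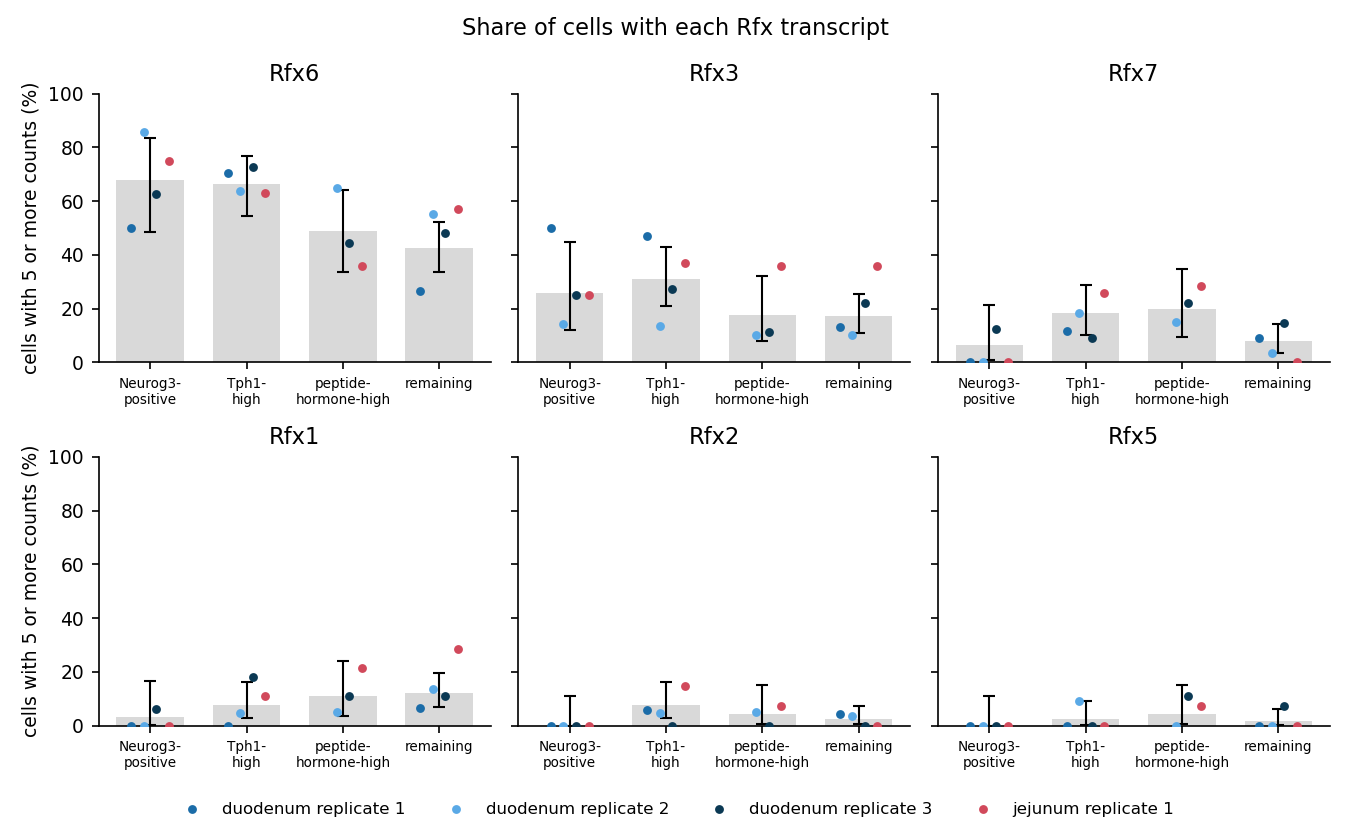
Percentage of cells with 5 or more counts of each Rfx gene by class, for cells in 1 class only. Bars are all cells pooled with exact 95% binomial intervals (counting error only), and points are plates with at least 3 cells of that class. Rfx6 stands highest in every class, and Rfx1, Rfx2, Rfx5 and Rfx7 are at or near 0 in the Neurog3-positive cells of most plates.

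Summed over the cells of a class, Rfx6 was higher in Tph1-high than in remaining cells in all 4 plates. It had 219, 97.5, 193 and 94.8 CPM in Tph1-high cells and 58.3, 38.7, 69.0 and 80.3 CPM in remaining cells of the same plates. Of 15158 genes tested, 13.4% were higher in Tph1-high than in remaining cells in all 4 plates, so this ordering is common among genes. A class sum does not tell fewer cells with the transcript from less transcript per cell, and the shares above address the first. Peptide-hormone-high cells had 120, 80.5 and 50.1 CPM of Rfx6 in duodenum replicates 2 and 3 and the jejunum plate, and Neurog3-positive cells had 45.6, 74.2, 154 and 37.3 CPM in the 4 plates. Both ranges overlapped that of the remaining cells. Duodenum replicate 1 had only 2 peptide-hormone-high cells outside the overlap, below the minimum of 3 cells, and gave no sum for that class.

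Rfx3 was above the remaining cells in every class sum. It had 86.5, 21.0, 48.1 and 46.1 CPM in Tph1-high cells, 85.3, 33.9, 18.4 and 109 CPM in Neurog3-positive cells and 31.9, 28.2 and 47.5 CPM in the 3 peptide-hormone-high sums, against 17.2, 13.9, 11.6 and 35.4 CPM in remaining cells. All 11 class sums were above the remaining cells of their plate, which held for 0.284% of the 15158 genes. The absolute ranges overlapped, since the jejunum plate's remaining cells (35.4 CPM) were above several class sums of other plates. Some of these sums rest on 1 cell. A single cell held 98.4% of the Rfx3 counts of the 4 Neurog3-positive cells of the jejunum plate and another 93.6% of those of the 7 in duodenum replicate 2. In peptide-hormone-high cells 1 of 9 held 97.5% in duodenum replicate 3, and 2 of 20 reached 5 counts in duodenum replicate 2. Goblet and Paneth markers were also lower in Tph1-high than in remaining cells in the same sums, as given above, and their part in the result was not tested.

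**Figure D3:**
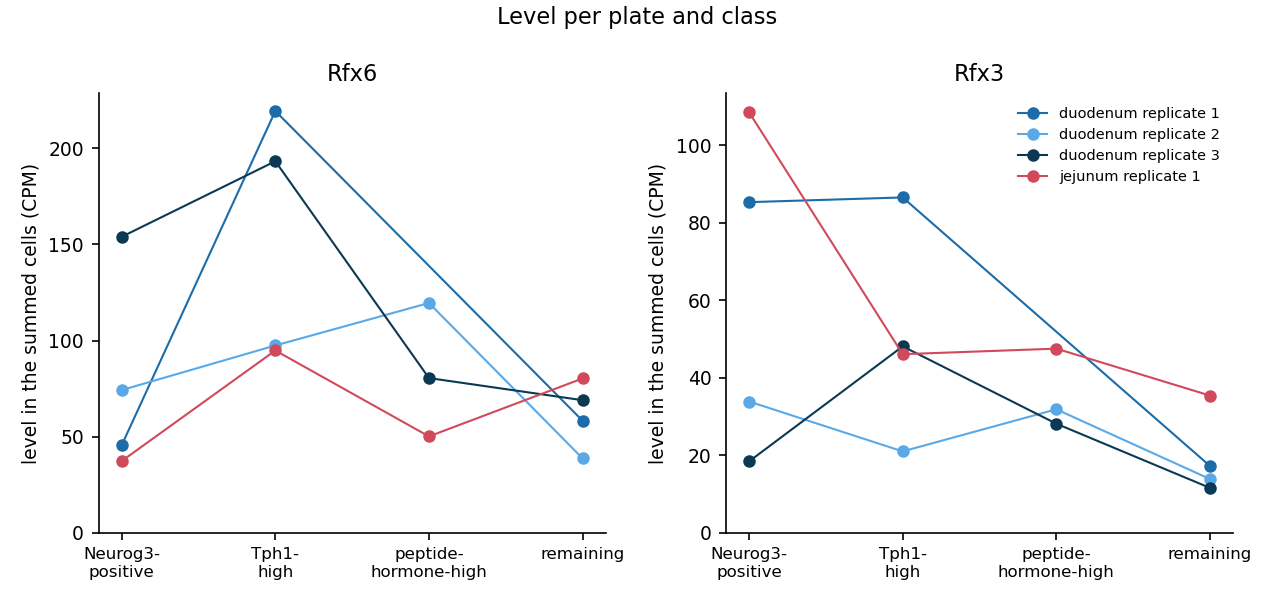
Rfx6 and Rfx3 level (CPM) in the summed cells of each class, with a line per plate. Duodenum replicate 1 has no peptide-hormone-high sum and its line passes over that class. Every plate has more Rfx6 in Tph1-high than in remaining cells, and every class sum of Rfx3 lies above the remaining cells of its plate.

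Endocrine-marked cells, the mean of the 3 classes, were then compared with the remaining cells by edgeR's quasi-likelihood test with plate as a block. Rfx3 had a log2 fold change of 1.13 ± 0.57 (SE) and an adjusted p of 0.561 by edgeR. Rfx6 had 0.42 ± 0.48 (edgeR adjusted p = 0.849). Rfx1 had -3.48 ± 1.03 (edgeR adjusted p = 0.211). Rfx2 had -1.53 ± 1.31, Rfx5 0.64 ± 5.98 and Rfx7 0.23 ± 1.24 (edgeR adjusted p = 0.764, 1 and 0.994). With a Neurog3 limit of 1 count in place of 5, Rfx1 became -1.17 and Rfx3 0.38. Of the 6 members 0 passed the adjusted threshold of 0.05 by edgeR, beside 0.778% of the 15158 genes, and 1 (Rfx1) had an unadjusted p under 0.05, beside 10% of genes. DESeq2 called 2 members, Rfx1 lower (-3.16, adjusted p = 0.00282) and Rfx3 higher (1.34, adjusted p = 0.0349), among 6.77% of the 28815 genes it tested. The endocrine-marked mean of Rfx1 was 6.40, 17.7 and 11.5 CPM in duodenum replicates 2 and 3 and the jejunum plate. Remaining cells of these plates had 19.1, 16.7 and 73.3 CPM, so Rfx1 was not lower in duodenum replicate 3. The edgeR median log2 fold change was 0.32 over the members and -0.51 over all genes tested.

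Rfx1 was low in the Neurog3-positive cells that carried no hormone mark. They held 14 Rfx1 counts in 31 cells, or 0, 0, 1.58 and 1.29 CPM in the 4 plates, against 22.2, 19.1, 16.7 and 73.3 CPM in remaining cells. The groups did not overlap, for which no share over all genes was computed. In the 14 remaining cells of the jejunum plate, the highest Rfx1 levels were 537, 422 and 238 CPM, and no other cell exceeded 8.23 CPM. Rfx1 was lower in Neurog3-positive than in remaining cells in every plate. For comparison, 12.5% of the genes were lower in Neurog3-positive than in remaining cells in all 4 plates. In Tph1-high cells Rfx1 had 0.488, 11.9, 27.6 and 7.34 CPM, and in the 3 peptide-hormone-high sums 7.31, 24.0 and 25.8 CPM.

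The other rare members were likewise sparse there. The same 31 cells held 76 Rfx7 counts, 2 Rfx2 counts and 0 Rfx5 counts. With 3 cells as the limit for a count of 0, up to 9.68% of such cells could have had an Rfx5 count, which sets no limit on cells that express Rfx5 uncounted. Rfx7 had 0, 0.360, 10.8 and 0 CPM in Neurog3-positive cells, against 21.6, 19.5, 18.9 and 13.3 CPM in Tph1-high cells and 22.0, 62.6 and 25.6 CPM in the 3 peptide-hormone-high sums. The Neurog3-positive sums lay below all hormone-high sums, an ordering whose share over all genes was not computed. In duodenum replicate 1 and in the jejunum plate these Neurog3-positive sums came from 4 cells each. Rfx2 had 21.6, 3.13, 0 and 25.7 CPM in Tph1-high cells, with 6 cells at 5 or more counts, and Rfx5 had 260 of its 265 Tph1-high counts in duodenum replicate 2.

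In the test of Neurog3-positive against hormone-high cells (the mean of Tph1-high and peptide-hormone-high), the log2 fold change by edgeR was -4.10 ± 1.34 for Rfx1 (adjusted p = 0.178), -4.65 ± 1.63 for Rfx7 (adjusted p = 0.211), -4.83 ± 1.96 for Rfx2 (adjusted p = 0.282) and -7.89 ± 3.80 for Rfx5 (adjusted p = 0.369). Leaving out a plate gave -7.47 (without duodenum replicate 3) to -3.59 for Rfx7 and -8.49 (without duodenum replicate 2) to -3.39 for Rfx2. Against groups at or near 0 these fitted values depend on the prior count and are no bounds. Rfx6 had -0.42 ± 0.51 and Rfx3 0.44 ± 0.59 (edgeR adjusted p = 0.733 and 0.759). By edgeR 0 of 6 members passed the adjusted threshold, beside 1.77% of the 15158 genes, and 3 members had an unadjusted p under 0.05 and a lower value, beside 9.96% of genes (14.9% in either direction). DESeq2 called 4 members lower (Rfx1, Rfx2, Rfx5 and Rfx7), beside 7.5% of the 28815 genes it tested (11.3% in either direction). The edgeR median log2 fold change was -4.37 over the members and -0.58 over all genes. Goblet markers were also higher in Neurog3-positive than in Tph1-high cells, by the sums given above, and their part in these values was not tested.

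The lower values of Rfx1 and Rfx2 rest on leaving out cells that meet 2 rules. The 17 cells with both Neurog3 and Tph1 held 211 Rfx1 counts and 381 Rfx2 counts, and 1 cell gave 380 of the Rfx2 counts. The highest Rfx1 levels among them were 329 and 265 CPM, both in duodenum replicate 3, and no other cell exceeded 3.49 CPM. In another setting, overlap cells with Neurog3 were assigned to Neurog3-positive, and the 3 with Tph1 and a peptide hormone to peptide-hormone-high. The hormone side changed as well, since duodenum replicate 1 then had a peptide-hormone-high sum of 3 cells. The edgeR log2 fold change of Rfx1 became 0.019 and that of Rfx2 1.37, while Rfx7 stayed lower at -1.51 and Rfx5 at -3.83. With a Neurog3 limit of 1 count Rfx1 became 0.24. Rfx6 was present in these 17 cells, with 5 or more counts in 9 of them (52.9%).

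Between the hormone classes no member stood apart. Against peptide-hormone-high cells, Tph1-high cells had an Rfx6 log2 fold change of 0.75 ± 0.65 (edgeR adjusted p = 0.983). Rfx3 had 0.23 ± 0.74, Rfx1 -0.44 ± 1.28, Rfx7 -0.81 ± 1.45, Rfx2 0.73 ± 1.66 and Rfx5 1.55 ± 3.72, with edgeR adjusted p = 1 for each. In the plates, Rfx6 was lower in Tph1-high than in peptide-hormone-high cells in duodenum replicate 2 (97.5 against 120 CPM) and higher in duodenum replicate 3 (193 against 80.5 CPM) and in the jejunum plate (94.8 against 50.1 CPM). By edgeR 0 of 6 members passed the adjusted threshold, beside 0.0858% of the 15158 genes, 0 members had an unadjusted p under 0.05, beside 7% of genes, and by DESeq2 0 members were called, beside 5.64% of genes. The median log2 fold change was 0.48 over the members and 0.09 over all genes. The standard errors, up to several log2 units for the rare members, mean that sizeable differences were not detectable at this number of plates.

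**Figure D4:**
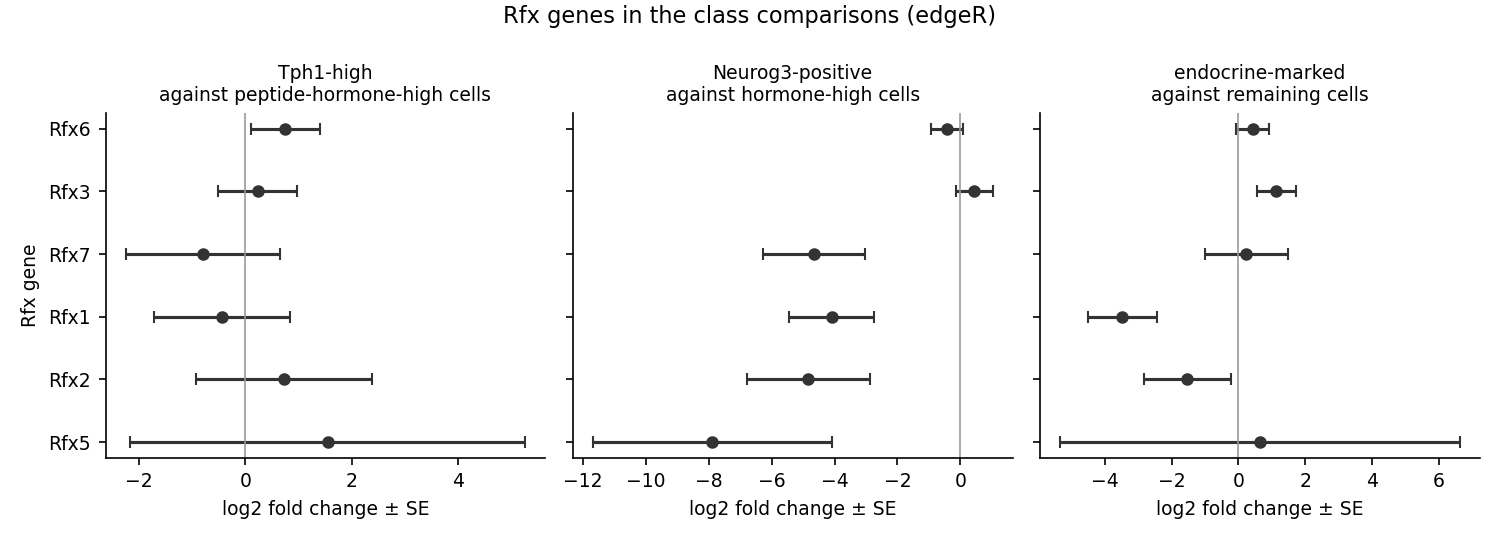
Log2 fold change with its standard error from edgeR for the 6 members in the 3 class comparisons, each on its own scale. Rfx1, Rfx2, Rfx5 and Rfx7 lie left of 0 in the Neurog3-positive comparison, where none passed the adjusted threshold, and Rfx6 and Rfx3 have the shortest bars.

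A single plate came from jejunum and a single plate from the older age, so plate cannot be told apart from tissue or age. For jejunum against duodenum, log2 fold changes by edgeR were -0.05 ± 0.50 for Rfx6, 0.74 ± 0.63 for Rfx3 (45.4 CPM against 41.1, 20.7 and 21.3 CPM), 0.42 ± 0.77 for Rfx1, -0.17 ± 0.74 for Rfx7, 0.71 ± 1.09 for Rfx2 and -2.72 ± 3.46 for Rfx5. For 39 against 12 weeks in duodenum they were -0.17 ± 0.50 for Rfx6, 0.82 ± 0.61 for Rfx3, 0.79 ± 1.18 for Rfx2, -0.64 ± 0.81 for Rfx1, 0.33 ± 0.72 for Rfx7 and -5.54 ± 3.28 for Rfx5. By edgeR 0 of 6 members passed the adjusted threshold in either comparison, beside 0% of 19329 genes for tissue and 0% of 18480 for age. At an unadjusted p under 0.05 there were 0 members and 819 genes for tissue and 0 members and 1412 genes for age. These were 4.24% and 7.64% of the genes tested. DESeq2 called 0 members in both, beside 2.74% and 3.65% of genes. Rfx4 and Rfx8 passed the low-count filter only here: for tissue Rfx4 had -7.03 ± 4.82 and Rfx8 7.36 ± 2.97, and for age Rfx4 had -7.46 ± 4.52 (edgeR adjusted p = 0.934, 0.934 and 0.661), and 1 cell held 70.6% of all Rfx4 counts and another 84.6% of all Rfx8 counts.

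Several members could be found in 1 cell. At 5 or more counts, 87 cells had no Rfx member, 121 had 1, 61 had 2, 20 had 3 and 1 had 4. Rfx3 was found in 44 of 156 cells with Rfx6 (28.2%) and in 21 of 134 without (15.7%), and after thinning in 33.8% and 18.0%. By plate the Rfx3 share was 42.9% with Rfx6 and 13.6% without in duodenum replicate 1, 13.5% and 6.45% in replicate 2, 30.8% and 12.1% in replicate 3, and 35.1% and 34.6% in the jejunum plate. The 3 duodenum plates thus differed in one direction and the jejunum plate hardly at all. Rfx1 was found in 12 of 65 cells with Rfx3 (18.5%) and 17 of 225 without (7.56%), and after thinning in 18.2% and 9.86%. Median depth was 455006 counts with Rfx3 and 417485 without. The share was higher with Rfx3 in all 4 plates, but on only 2 of 18, 1 of 9, 4 of 16 and 5 of 22 cells. Gene pairs outside the family were not compared. Rfx1 was found in 0 of 12 cells with Rfx2 and in 29 of 278 without (10.4%), too few cells to read as exclusion. Cells are not replicates, so these shares carry no test.

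The genes whose level followed Rfx6 most closely over the 290 cells were Hmgn3 (Spearman rho 0.30), Selenop (0.29), Bex2 (0.28), Cpe (0.27) and Neurod1 (0.26), out of 7555 genes that reached 5 counts in 10% of cells or more. Levels were log2(CPM + 10) centred by plate. Cpe encodes the prohormone-trimming carboxypeptidase E, and Neurod1 a transcription factor that follows Neurog3. Within plates rho ran from 0.22 to 0.43 for Hmgn3 and from -0.03 to 0.63 for Cpe, so Cpe did not follow Rfx6 in every plate. The cells of a plate share library and depth, and correlations of this size in sparse counts are descriptions only. For Rfx1 the 5 genes were Opa1, Plekhm1, Cnnm4, Kif13b and E2f5, for Rfx3 Ercc2, Gm40309, Hgsnat, Vps8 and Ccdc117, and for Rfx7 Slc35a2, Ercc2, Mon1b, 2300009A05Rik and Amdhd2. For these members, 14 of the 15 pooled correlations were higher than in any single plate, and few of the genes recurred under other settings, so nothing is read from the names.

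Listed partner and target genes were examined in the same tests, to be read beside the shares of all genes called by edgeR (1.77% in Neurog3-positive against hormone-high, 0.0858% between hormone classes and 0.778% against remaining cells). None of the 11 tested MHC class II regulators and targets, which include the Rfx5 partners Rfxank and Rfxap, passed the edgeR threshold in a class comparison, and at most 1 had an unadjusted p under 0.05. Of 18 tested cilium genes 1 passed, Arl13b, a small GTPase of the ciliary membrane, lower in Neurog3-positive than hormone-high cells (-6.40 ± 1.25, edgeR adjusted p = 0.0223). The list's median was -1.19 there, beside -0.58 for all genes.

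Of 19 endocrine transcription factors, 2 rose and 2 fell in Neurog3-positive against hormone-high cells. One of those that rose is Neurog3, which the class rule uses. Pax4, a factor of early endocrine cells, rose (2.02 ± 0.39, edgeR adjusted p = 0.0200), from 80.9, 76.9 and 113 CPM in Tph1-high cells of duodenum replicates 2 and 3 and the jejunum plate to 315, 275 and 169 CPM in Neurog3-positive cells. Pax6, which acts in hormone gene expression, fell (-4.93 ± 0.86, edgeR adjusted p = 0.0113), and Fev, a factor of serotonin cells, fell (-1.51 ± 0.27, edgeR adjusted p = 0.0140). The list's median was -0.70. Between hormone classes 1 of 19 passed: Isl1 was lower in Tph1-high cells (-8.63 ± 0.83, edgeR adjusted p = 0.00332), with 1.57, 0.521 and 1.91 CPM against 553, 293 and 479 CPM. The groups did not overlap, and no Rfx member passed this test.

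Stimulus-secretion genes, which load and release hormone, fell in 3 of 15 cases in Neurog3-positive cells and rose in 0. Cpe fell by 1.75 ± 0.24 on the log2 scale (edgeR adjusted p = 0.00231), and Scg5, the chaperone of a prohormone convertase, by 3.46 ± 0.75 (edgeR adjusted p = 0.0371). Ddc, which makes serotonin from its precursor, fell by 1.01 ± 0.21 (edgeR adjusted p = 0.0330). The list's median was -2.29, beside -0.58 for all genes. Against the remaining cells, Cpe was the 1 gene of 15 that rose in endocrine-marked cells (1.25 ± 0.22, edgeR adjusted p = 0.0185). In the tissue and age comparisons 0 genes of any list passed.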

How the data were processed

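Single eYFP-positive cells from 4 plates were measured. The deposited values are whole-number counts per gene and cell, in a single table that the authors named as filtered, by a rule no source here states. The submitters' processing notes name bcl2fastq 2.17.1.14, cutadapt 1.10, Bowtie2 2.2.8, STAR 2.5.3a, UMI-tools 0.4.4, HTSeq 0.6.1 and the build mm10, without roles. With a largest value of 643177, whether copies were collapsed is not settled, so intervals cover counting error only. Columns were matched to plates by the experiment number in the column name and the pool number in the title (0 left unmatched). The labels do not say whether plates came from separate mice, so the plate is the replicate. In class comparisons, p-values measure how differences between classes vary from plate to plate. In the tissue and age comparisons they measure the spread between whole-plate sums. Of 29161 genes, 29120 had a symbol. Plate totals were 23893272, 38265093, 37699098 and 46490618 counts, and single cells held 202711 to 2312044. No doublet caller was run and no cell was removed.

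For class comparisons the counts of the cells of a class were added up within each plate (at least 3 cells, cells meeting 1 rule only) and fitted in edgeR 4.0.16 (glmQLFit, glmQLFTest, TMM, filterByExpr; R 4.3.3, limma 3.58.1) with Benjamini-Hochberg adjustment over all genes tested and a threshold of 0.05. The plate was a block, because the class sums of a plate come from the same library. Tissue and age used whole-plate sums. The script was tested on simulated data. DESeq2 1.42.0, other limits, thinning to 100000 counts and leaving out plates were alternatives. Shares have exact (Clopper-Pearson) 95% intervals, and a count of 0 allows 3 cells. Every Rfx member was named in each comparison, and from each list up to 4 genes past the threshold with the largest absolute fold change. Likeness was Spearman's rho, with 5 genes named for each member that reached 5 counts in 10% of cells or more. Promoter sequences are RefSeq's (GRCm38.p6) and gene positions GENCODE M21's (GRCm38). The members and lists were chosen with earlier results of these data known.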

Additional observations from a re-analysis of the deposited data

Results flagged for a closer look

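Contrasts that ran one way in every duodenum plate with sums for both sides and the other way in the jejunum plate were listed for the members, as log2 ratios of (CPM + 1). These differences were not tested, there is 1 jejunum plate, and duodenum replicate 1 had no peptide-hormone-high sum, so 2 duodenum plates stand against 1. Rfx6 in endocrine-marked against remaining cells was 1.30 and 1.04 in duodenum replicates 2 and 3 and -0.40 in the jejunum plate (60.8 against 80.3 CPM there). Rfx1 in Tph1-high against peptide-hormone-high cells was 0.63 and 0.20 in duodenum and -1.68 in jejunum (7.34 against 25.8 CPM). Rfx2 in endocrine-marked against remaining cells was -1.24 and -0.08 in duodenum and 3.23 in jejunum (12.8 against 0.467 CPM). No group had enough plates for a search for single outlying samples.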

How the results depend on the processing

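Of 330 member fold changes under other settings, 307 kept direction and side of the threshold. DESeq2 called Rfx1 (-3.99), Rfx2 (-3.99), Rfx5 (-21.21) and Rfx7 (-4.43) in Neurog3-positive against hormone-high cells (4 members called) and Rfx1 (-3.16) and Rfx3 (1.34) in endocrine-marked against remaining cells (2 called), and turned Rfx5 there to -1.63. The cause was not tested. Turned directions in Neurog3-positive against hormone-high cells were: overlap cells assigned, Rfx1 0.019 and Rfx2 1.37; Neurog3 limit of 1 count, Rfx1 0.24 and Rfx3 -0.39; at least 5 cells per sum, Rfx3 -0.15 and Rfx6 0.12; thinned cells, Rfx3 -0.25. Rfx3 in Tph1-high against peptide-hormone-high cells became -0.077 with a Neurog3 limit of 1 count. In endocrine-marked against remaining cells Rfx2 became 0.19 with overlap cells assigned and Rfx7 -0.25 with a peptide limit of 500 CPM.

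Leaving out a plate gave Rfx1 -1.14 to 0.016 (highest without jejunum replicate 1) and Rfx3 -0.041 to 0.57 (lowest without duodenum replicate 3) in Tph1-high against peptide-hormone-high cells. It gave Rfx7 -0.39 to 0.76 in endocrine-marked against remaining cells (-0.39 without jejunum replicate 1, -0.27 without duodenum replicate 3). For jejunum against duodenum it gave Rfx5 -3.29 to 0.017 (highest without duodenum replicate 2) and Rfx6 -0.16 to 0.13 (highest without duodenum replicate 3). Genes called, in the order Tph1-high against peptide-hormone-high, Neurog3-positive against hormone-high, endocrine-marked against remaining, tissue and age, were 13, 269, 118, 0 and 0 by edgeR and 1624, 3242, 1952, 798 and 1008 by DESeq2. Without the replicate block (plate) they were 8, 216 and 44, with no member called either way. Leaving out a plate gave 2 to 14, 56 to 197, 20 to 79 and, for tissue, 0 to 10, the lowest of the first 3 without duodenum replicate 2 or jejunum replicate 1 (2 each), jejunum replicate 1 (56) and duodenum replicate 3 (20). Overlap cells assigned gave 7, 60 and 263, and at least 5 cells per sum 20 and 139 in the first and second. No low-count filter gave 9 and 226 for tissue and age, and thinned cells 1 and 106. The age test without a duodenum plate was not run, since it leaves no residual degrees of freedom.

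Mean shares of cells with at least 5 counts were 53.6% (Rfx6), 23.2% (Rfx3), 13.4% (Rfx7), 10.2% (Rfx1) and 2.34% (Rfx5), and after thinning, with at least 1 count, 53.9%, 27.2% and 16.5% for Rfx6, Rfx3 and Rfx7 and 1.99% for Rfx5. Of the 5 genes most like each member, Pearson's r kept 1 (Rfx1), 0 (Rfx3) and 0 (Rfx7), no centring kept 1, 0 and 2, and the mean of correlations within plates, added after the data had been seen, kept 1, 0 and 2, and 3 for Rfx6. With 3 or 4 sums a class and rare transcripts carried by few cells, the spread limits all member tests.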
